A study of Mus musculus with 15 samples.

Results

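MHC class II presentation was followed through 9 genes of mouse bone marrow-derived macrophages (BMDMs), chosen by name from the 25814 genes of the deposited tables: the chain genes H2-Aa, H2-Ab1 and H2-Eb1, the invariant chain gene Cd74, the peptide exchange genes H2-DMa, H2-DMb1 and H2-Oa, the protease gene Ctss and the regulator gene Ciita. The study asked how the RNA profile of BMDMs changes when TLR3 or TLR7 is stimulated. In all, 5 libraries came from BMDMs given poly(I:C) at 10 µg/ml for 6 h, 5 from BMDMs given CL075 at 4 µM for 6 h, and 5 from control BMDMs. Poly(I:C) is a man-made double-stranded RNA and a ligand of TLR3, and CL075 is a thiazoloquinolone that stimulates TLR7. The cells of every group came from the bone marrow of adult C57BL/6 wild-type mice, grown for 6 days in DMEM with 10% FBS and 20% medium conditioned by L929 fibroblasts, which supplies macrophage colony-stimulating factor. The labels number the libraries 1 to 5 in each group and do not say what a number stands for or whether libraries came from separate animals, so the p-values measure the spread between these libraries, which may be technical. Values per library below run from number 1 to number 5. In GRCm38.p6 the H2 genes of the list lie on chromosome 17 between 34092340 (the start of H2-Oa) and 34316199 (the end of H2-Eb1), Ciita on chromosome 16 from 10480059 to 10528418, Cd74 on chromosome 18 from 60803848 to 60812646 and Ctss on chromosome 3 from 95526786 to 95556403.

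Class II molecules are pairs of an alpha and a beta chain on the surface of antigen-presenting cells that show peptides to CD4+ T cells. The invariant chain (Cd74) escorts the new pair to the endosome and fills its groove. Cathepsin S (Ctss) trims the invariant chain down to a short remnant, H2-DM swaps that remnant for other peptides, and H2-O holds H2-DM back. Ciita binds no DNA itself and works as the coactivator that turns on class II genes, on a platform of RFX, CREB and NF-Y proteins bound to the X and Y boxes of their promoters. In macrophages class II is a gene set known for its induction by interferon gamma, which acts through Irf1 and Ciita.

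The promoters of 4 members are shown because each holds the core of the Y box, while H2-Oa and H2-DMb1 moved apart from H2-Aa and H2-Eb1 in the libraries. RefSeq windows (GRCm38.p6, from 250 bases before to 50 after the start of a gene) were searched on both strands for GATTGG, the core of the Y box, and GCAAC, a core of the RFX site in the X box. The stretches below run 5′ to 3′ on the strand of the gene over 100 bases, from position -110 to -11 with the start at 0, and capitals mark the matches.
H2-Aa, chr17:34287834-34287933, minus strand: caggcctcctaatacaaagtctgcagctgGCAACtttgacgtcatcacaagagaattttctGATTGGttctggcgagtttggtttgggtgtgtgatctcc
H2-Eb1, chr17:34305757-34305856, plus strand: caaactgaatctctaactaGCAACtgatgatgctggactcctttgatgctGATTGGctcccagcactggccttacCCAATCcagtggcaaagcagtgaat
H2-Oa, chr17:34092269-34092368, plus strand: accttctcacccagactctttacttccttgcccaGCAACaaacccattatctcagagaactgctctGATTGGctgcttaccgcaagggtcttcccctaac
H2-DMb1, chr17:34153081-34153180, plus strand: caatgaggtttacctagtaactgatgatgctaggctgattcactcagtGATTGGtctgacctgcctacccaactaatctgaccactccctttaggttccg

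GATTGG stood at -49 in H2-Aa, -60 in H2-Eb1, -44 in H2-Oa and -62 in H2-DMb1, and 16.1% of all 32851 windows hold it. GCAAC, which 35.2% of windows hold, lay upstream of it in H2-Aa, H2-Eb1 and H2-Oa, with 27, 26 and 27 bases between both motifs. Only 0.0944% of all windows (31) hold the pair on 1 strand with 24 to 27 bases between them, a spacing set after these promoters were seen, and among them are also H2-Ob and H2-Eb2. In H2-Eb1 a further match lies on the other strand, written CCAATC. H2-DMb1 has no GCAAC in its window, but shares the run aactgatgatgct with H2-Eb1, where that run starts inside GCAAC. It is found in 3 of the 32851 windows. The CREB core TGACG has 2 overlapping matches, 1 on each strand, between both motifs of H2-Aa (20.8% of windows hold it), and Ctss alone of the members with a window held GAAA and GAAA with any 2 bases between them, the core of an interferon-stimulated response element (3.44% of windows). TTCNNNGAA, the gamma-activated site, was in none of the windows of the 6 members that had one (8.3% of all windows). H2-Ab1, Ciita and Cd74 were not searched. The 2 RefSeq windows of H2-DMa lie upstream of the start that the tables give for that gene, and are not shown. A match is a description of letters and not a binding site.

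Levels were compared between genes as TPM, which counts reads per length of gene with an equal sum in every library. In control cells Ctss was the most abundant at 7153 ± 398 TPM (SD, n = 5), followed by Cd74 at 772 ± 176, H2-Aa at 288 ± 79.1, H2-Eb1 at 140.0 ± 30.2, H2-Ab1 at 107 ± 25.2, H2-DMb1 at 58.1 ± 7.31, H2-DMa at 32.7 ± 4.80, Ciita at 4.90 ± 0.847 and H2-Oa at 0.237 ± 0.110 TPM. The ranges of neighbours in this order overlapped only between H2-Eb1 and H2-Ab1. The same 7 genes led the order in poly(I:C) and in CL075 cells, where again the ranges of H2-Ab1 and H2-Eb1 overlapped. At the low end, H2-Oa stood above Ciita in poly(I:C) cells (1.30 ± 0.527 against 0.665 ± 0.0867 TPM), and their ranges overlapped in CL075 cells (0.144 ± 0.0636 TPM for H2-Oa and 0.178 ± 0.0433 TPM for Ciita).

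Differences between groups were tested on the counts in 1 fit of edgeR's quasi-likelihood test with TMM scaling, over the 11804 genes with enough reads, and all 9 members were among them, H2-Oa only through its poly(I:C) libraries. A gene was called at a Benjamini-Hochberg adjusted p under 0.05, a fold over 1.5 and a group mean over 0.5 TPM, the thresholds of the study. Differences are log2 fold changes on the TMM scale unless another is named, with values per library in CPM on that scale. With poly(I:C) 5 of the 9 members were called higher (H2-Aa, H2-Ab1, Cd74, Ctss and H2-Oa) and 1 lower (Ciita), where 25.4% and 30.5% of all tested genes were called in those directions. With CL075 1 was called higher (H2-Ab1) and 3 lower (Ciita, H2-DMa and H2-DMb1), against 17.6% and 21.5% of all tested genes. The median log2 fold change of the members was 0.63 with poly(I:C) and -0.04 with CL075, and over all tested genes it was -0.08 and -0.02. H2-Oa, kept for its poly(I:C) reads, had to differ there, and the other 8 members had 4 higher calls and 1 lower call with that treatment, with medians of 0.55 for poly(I:C) and 0.11 for CL075. In each of these comparisons, 3 of the 9 members had libraries that kept apart by group, whereas that held for 75.9% of tested genes with poly(I:C) and 65.2% with CL075.

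The choice of scale bears on the small differences. The TMM factors lay between 0.683 and 0.721 in poly(I:C) libraries, 1.03 and 1.09 in CL075 libraries and 1.33 and 1.38 in control libraries, and no spike-in gives an absolute amount. The median of all genes was -1.02 with poly(I:C) and -0.37 with CL075 when library totals were the scale, -0.63 and -0.31 when Hprt was the scale, and -0.41 and -0.18 under upper-quartile factors. Directions below are relative to these medians. In bulk RNA, fewer cells of a type and less RNA per cell cannot be told apart.

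**Figure D1:**
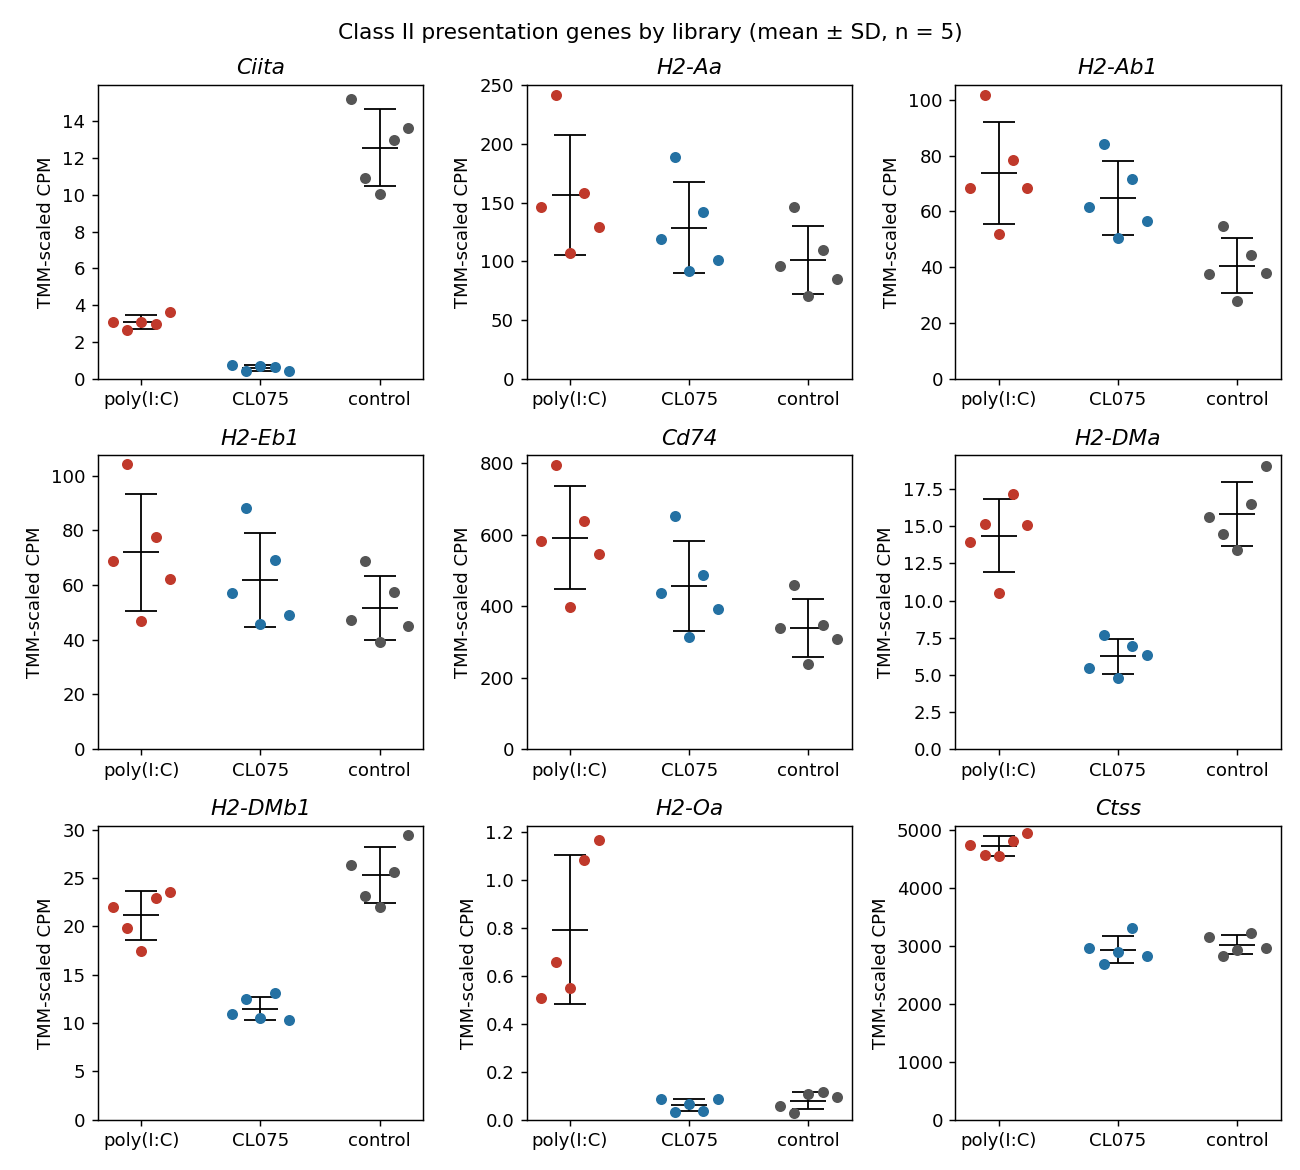
TMM-scaled CPM (vertical axes, linear and starting at 0) of the 9 genes in each library, with poly(I:C), CL075 and control from left to right and bars for the mean ± SD of 5 libraries. Ciita separates all groups, with CL075 libraries at 0.428 to 0.723 CPM, whereas H2-DMa and H2-DMb1 are lowest in CL075 libraries and H2-Oa is high in poly(I:C) libraries only.

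Ciita had the largest losses of the members. It stood at 3.09, 2.63, 3.07, 2.97 and 3.63 CPM in poly(I:C) libraries, at 0.723, 0.430, 0.693, 0.624 and 0.428 CPM in CL075 libraries and at 15.2, 10.9, 10.1, 13.0 and 13.6 CPM in control libraries. No group overlapped another, and the values rest on 48 to 84 reads per library with poly(I:C), 13 to 21 with CL075 and 372 to 587 in control libraries. Ciita was thus 4.06-fold lower with poly(I:C) (log2 fold change -2.02, SE 0.13, edgeR adjusted p = 2.7e-11) and 21.9-fold lower with CL075 (-4.45, SE 0.16, edgeR adjusted p = 1.8e-14). The calls held on every scale tried, and leaving out any 1 library gave -2.09 to -1.94 with poly(I:C) and -4.54 to -4.35 with CL075. In the direct comparison, poly(I:C) cells had 5.40-fold more Ciita than CL075 cells (log2 2.43, SE 0.19, edgeR adjusted p = 1e-09).

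The 5 genes whose profile over the 15 libraries was most like that of Ciita were Slc46a3, Gpr155, Enc1, Nlrp1b and Cd28. Their log2 CPM, centred on each gene's mean, differed from Ciita's by a root mean square of 0.390 (Slc46a3), 0.394 (Gpr155), 0.404 (Enc1), 0.451 (Nlrp1b) and 0.468 (Cd28), among 11464 genes. The likeness is a description. Slc46a3, a lysosomal transporter, differed from control by -2.27 with poly(I:C) and -3.80 with CL075, and Cd28, best known as a T cell costimulatory receptor, by -1.07 and -4.10. None of the 9 members was among these 5.

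The chain genes and Cd74 did not show the losses of Ciita. H2-Ab1, the beta chain of I-A, had 68.4, 102, 51.7, 78.3 and 68.3 CPM in poly(I:C) libraries, 61.6, 84.2, 50.6, 71.5 and 56.5 CPM in CL075 libraries and 37.4, 54.7, 27.9, 44.4 and 37.8 CPM in control libraries. Each treated group overlapped the control group in 1 or more libraries, since libraries of 1 group differed by up to 1.97-fold. H2-Ab1 was called higher with poly(I:C) (log2 0.86, SE 0.18, edgeR adjusted p = 0.0002) and with CL075 (0.68, SE 0.18, edgeR adjusted p = 0.0019), but with library totals the poly(I:C) difference turned to -0.07 and the CL075 difference was 0.33 and not called. The poly(I:C) call also ended with upper-quartile factors (0.54) and with Hprt as the scale (0.31). The CL075 call also ended without CL075 library 2 (0.57), without control library 3 (0.57), with upper-quartile factors (0.53), on the Hprt scale (0.39) and under glmTreat, which tests against the fold of 1.5 itself (edgeR adjusted p = 0.31). With a block for the library number H2-Ab1 was called with poly(I:C) (0.86, SE 0.04, edgeR adjusted p = 2.2e-12) and CL075 (0.69, SE 0.04, edgeR adjusted p = 9.2e-11).

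Cd74 had 582, 794, 398, 638 and 546 CPM in poly(I:C) libraries, 436, 652, 314, 486 and 391 CPM in CL075 libraries and 340, 460, 238, 349 and 307 CPM in control libraries. Libraries of the treated groups overlapped those of the control group. Cd74 was called higher with poly(I:C) on the TMM scale (1.75-fold, edgeR adjusted p = 0.00088) but not with upper-quartile factors (0.48) or Hprt (0.25), and its log2 fold change was -0.13 with library totals. With CL075 it differed by 0.43 (95% interval 0.02 to 0.84, edgeR adjusted p = 0.052) and was not called. In TPM, a scale of library totals per length, the group means of Cd74 were 747 ± 174 in poly(I:C) cells, 818 ± 220 in CL075 cells and 772 ± 176 in control cells, which overlap widely.

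H2-Aa, the alpha chain of I-A, had 146, 242, 107, 158 and 130 CPM in poly(I:C) libraries, 119, 189, 91.4, 142 and 101 CPM in CL075 libraries and 95.7, 147, 70.5, 109 and 84.8 CPM in control libraries. The groups overlapped in every comparison. The poly(I:C) difference of 0.63 (SE 0.22, edgeR adjusted p = 0.015) just passed the fold threshold, and the call ended without poly(I:C) library 2 (0.41), control library 3 (0.52) or control library 5 (0.57), with upper-quartile factors (0.30) and with Hprt as the scale (0.06), and the direction turned with library totals (-0.31). With CL075 H2-Aa differed by 0.34 (95% interval -0.13 to 0.81) and was not called. A fit with a block for the library number gave the same 0.34 with an SE of 0.04 (edgeR adjusted p = 3.2e-07). That difference, too, was below the fold threshold. For poly(I:C) the block fit gave 0.62 (SE 0.04, edgeR adjusted p = 6e-11), which was called. Leaving out 1 library takes a number from 1 group only, and library 2 was the highest and library 3 the lowest of each group.

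H2-Eb1, the beta chain of I-E, had 68.9, 104, 46.7, 77.6 and 62.3 CPM in poly(I:C) libraries, 57.0, 88.1, 45.8, 69.0 and 49.1 CPM in CL075 libraries and 47.2, 68.9, 39.2, 57.6 and 45.2 CPM in control libraries. Its differences were 0.48 (95% interval 0.06 to 0.90) with poly(I:C) and 0.26 (95% interval -0.16 to 0.68) with CL075, below the fold threshold in both cases and with the sign turned under library totals and Hprt. The poly(I:C) difference was called without control library 2 (0.60) or poly(I:C) library 3 (0.59). The gene of the I-E alpha chain was not analysed here. The direct comparison of poly(I:C) with CL075 called none of H2-Aa (0.28), H2-Ab1 (0.18), H2-Eb1 (0.22) and Cd74 (0.38), and these 4 differences were positive on the TMM scale and negative with library totals.

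**Figure D2:**
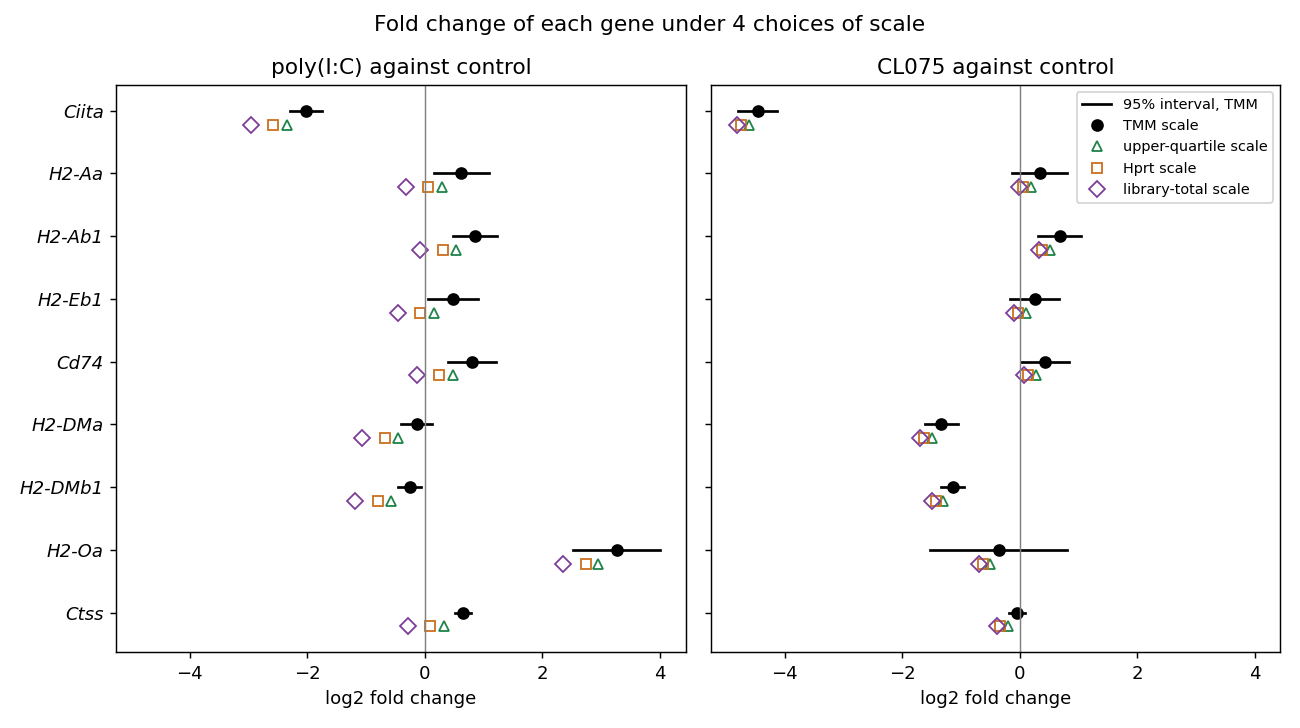
Log2 fold change (horizontal axes) of each gene with poly(I:C) (left) and CL075 (right) against control; filled circles with lines are the TMM value and its 95% interval, and open marks are the values with upper-quartile factors, Hprt and library totals. Ciita lies left of 0 and H2-DMa and H2-DMb1 lie left of 0 with CL075 on each scale, while with poly(I:C) the chain genes, Cd74 and Ctss cross 0 between TMM and library totals.

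The ratio of 2 genes in the same library does not depend on the scale, so 6 ratios of TPM were compared as well, each by an exact two-sided permutation test of the log2 ratio with p-values adjusted over all 18 tests. The smallest p that 5 libraries against 5 allow is 0.00794, which becomes 0.0179 after adjustment. The ratio of H2-Eb1 to H2-Ab1 was 1.03, 1.05, 0.924, 1.01 and 0.933 in poly(I:C) libraries, 0.945, 1.07, 0.926, 0.987 and 0.889 in CL075 libraries and 1.29, 1.29, 1.44, 1.33 and 1.22 in control libraries. All treated libraries lay below all control libraries, with log2 differences of -0.41 for poly(I:C) and -0.45 for CL075 (exact permutation adjusted p = 0.0179 for both). The ratio of H2-Aa to H2-Ab1 was 2.25 ± 0.191 in poly(I:C) libraries, 2.09 ± 0.195 in CL075 libraries and 2.67 ± 0.173 in control libraries (SD, n = 5; exact permutation adjusted p = 0.026 for each treatment), and 1 or more libraries overlapped. The chain genes thus changed unequally within a library, with H2-Ab1 gaining on H2-Eb1 and H2-Aa under both treatments. Neither ratio passed between poly(I:C) and CL075 (exact permutation adjusted p = 0.276 for H2-Aa and 0.516 for H2-Eb1).

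The ratio of Cd74 to H2-Ab1 was 6.90 ± 0.269 in poly(I:C) libraries, 5.97 ± 0.473 in CL075 libraries and 7.21 ± 0.404 in control libraries. CL075 libraries lay below all control libraries (log2 difference -0.27, exact permutation adjusted p = 0.0179), and the poly(I:C) difference of -0.06 did not pass (exact permutation adjusted p = 0.224). Of all 18 tests, 11 passed an adjusted p of 0.05, among them those of H2-Oa with poly(I:C), which are given as a description below.

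H2-DMa and H2-DMb1, the chains of the peptide exchange factor H2-DM, were lower with CL075. H2-DMa had 13.9, 15.2, 10.5, 17.2 and 15.1 CPM in poly(I:C) libraries, 5.49, 7.71, 4.76, 6.97 and 6.37 CPM in CL075 libraries and 15.7, 14.5, 13.4, 16.5 and 19.0 CPM in control libraries. The CL075 libraries lay below all others. H2-DMa was 2.52-fold lower with CL075 (log2 fold change -1.33, SE 0.13, edgeR adjusted p = 3.7e-08), and 2.30-fold higher in poly(I:C) cells than in CL075 cells (log2 1.20, SE 0.14, edgeR adjusted p = 2.2e-07).

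H2-DMb1 had 22.03, 19.8, 17.4, 23.0 and 23.6 CPM in poly(I:C) libraries, 10.98, 12.5, 10.6, 13.1 and 10.4 CPM in CL075 libraries and 26.3, 23.2, 21.99, 25.7 and 29.5 CPM in control libraries. Again CL075 libraries lay below all others, at 2.20-fold below control (-1.14, SE 0.09, edgeR adjusted p = 2.8e-09). The gap between poly(I:C) and CL075 was 0.88 (SE 0.10, edgeR adjusted p = 1.2e-07) and was not called with library totals (0.30). With poly(I:C) against control, H2-DMa (-0.13) and H2-DMb1 (-0.26) were not called on the TMM scale, but both were called lower with library totals (-1.07 and -1.19) and with Hprt (-0.68 and -0.80). H2-DMb2, a second beta chain gene of H2-DM beside H2-DMb1, was lower with poly(I:C) (-1.92, SE 0.18, edgeR adjusted p = 7.9e-09) and with CL075 (-2.28, SE 0.17, edgeR adjusted p = 7.7e-10). Of the 75-base windows of H2-DMb1 transcripts 15.8% also occur in H2-DMb2, so the counts of both genes are uncertain to that extent. Of those of H2-DMa 7.46% also occur, on either strand, in Brd2, which had 101239 reads in poly(I:C), 41878 in CL075 and 37066 in control libraries, and its part in the H2-DMa values was not tested.

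The ratio of H2-DMa to H2-Ab1 within a library separated all groups. It was 0.159, 0.116, 0.159, 0.171 and 0.172 in poly(I:C) libraries, 0.0693, 0.0713, 0.0732, 0.0759 and 0.0878 in CL075 libraries and 0.326, 0.206, 0.373, 0.289 and 0.392 in control libraries. The exchange factor's RNA was thus 2.01-fold lower relative to the I-A beta chain with poly(I:C), and 4.11-fold lower with CL075 (exact permutation adjusted p = 0.0179 for each, and for the 2.04-fold difference between treatments).

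**Figure D3:**
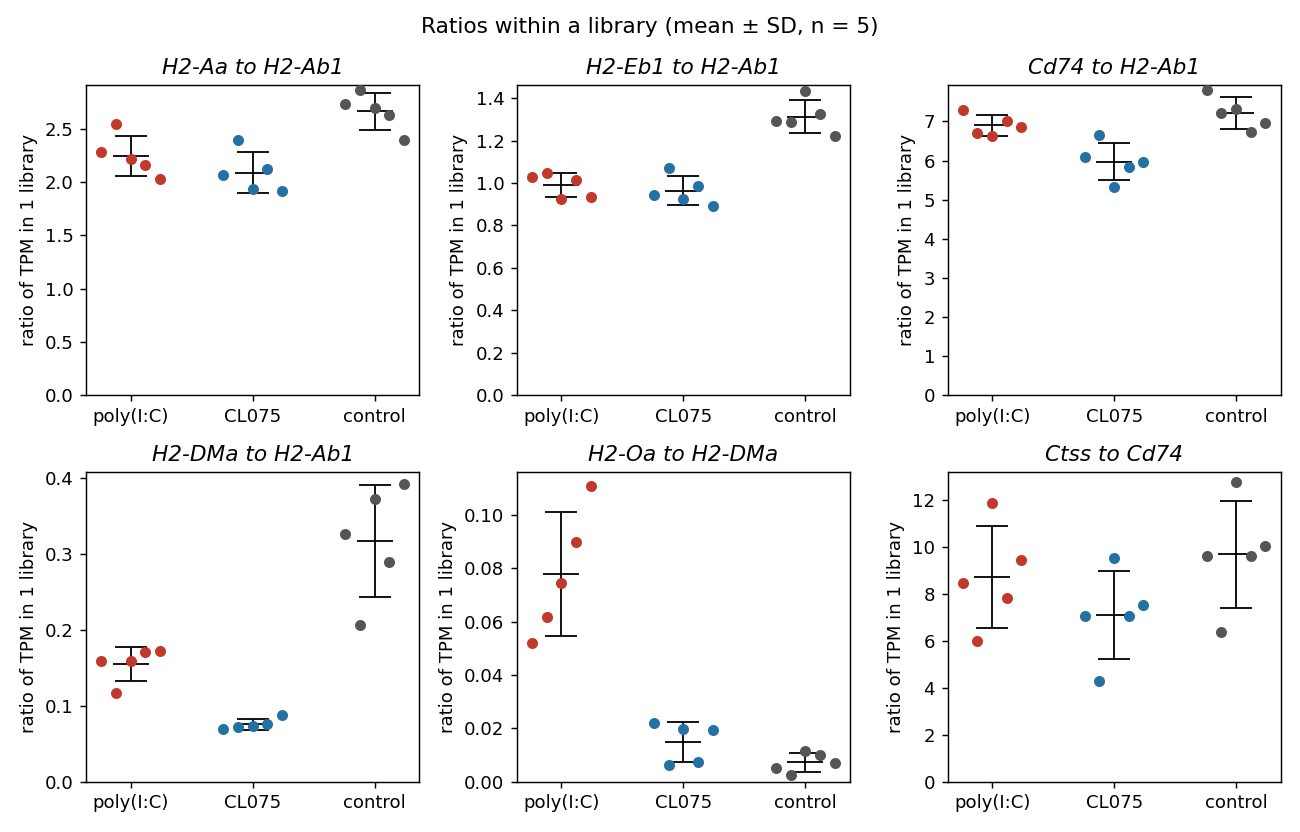
Ratio of the TPM of 2 genes in the same library (vertical axes, from 0), for poly(I:C), CL075 and control from left to right, with bars for the mean ± SD of 5 libraries. The ratio of H2-DMa to H2-Ab1 separates all groups, that of H2-Eb1 to H2-Ab1 separates both treatments from control, and that of Ctss to Cd74 overlaps throughout.

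H2-Oa, the alpha chain of the H2-DM inhibitor H2-O, moved the other way with poly(I:C). It had 10, 12, 10, 23 and 27 reads in poly(I:C) libraries, 2, 1, 2, 1 and 3 reads in CL075 libraries and 2, 1, 4, 4 and 4 reads in control libraries. All poly(I:C) libraries lay above all others, while CL075 and control libraries overlapped. The count level of the filter was reached in 5 of 5 poly(I:C) libraries and in 0 of 5 libraries of either other group, so a gene kept in this way had to differ and its test is given as a description. On the TMM scale H2-Oa was 9.63-fold higher with poly(I:C) than in control cells (log2 3.27, SE 0.35, edgeR adjusted p = 6.4e-08) and 12.3-fold higher than with CL075 (3.62, SE 0.39, edgeR adjusted p = 8.6e-08). These errors are smaller than the counting error of the summed reads, 0.41 and 0.51 on the log2 scale (82 reads with poly(I:C), 9 with CL075 and 15 in control libraries), and understate the uncertainty. With CL075 the difference of -0.36 had a 95% interval of -1.52 to 0.81, so that no change was detectable at this depth. H2-Ob, which encodes the partner chain of H2-Oa, was not called with poly(I:C) (-0.23, SE 0.21) or CL075 (-0.32, SE 0.20). Of the exon bases of H2-Oa 22.8% overlap BC051537 on the other strand, a gene not analysed here, and no source used here gives the strand setting of the counting.

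Relative to H2-DMa in the same library, H2-Oa stood at 0.0779 ± 0.0233 in poly(I:C) libraries, 0.0150 ± 0.00754 in CL075 libraries and 0.00726 ± 0.00358 in control libraries (SD, n = 5). The poly(I:C) ratio was above the control ratio in every library (log2 difference 3.55, exact permutation adjusted p = 0.0179). Because H2-Oa reached the count level of the filter only with poly(I:C), its ratio tests are likewise given as a description. The CL075 difference from control was 1.03 and did not pass (exact permutation adjusted p = 0.131). With a pseudocount of 1 TPM on both genes the CL075 difference from control was 1.49 and passed (exact permutation adjusted p = 0.0179), and that between poly(I:C) and CL075, which had been 2.52 and passed, was 0.34 and did not (exact permutation adjusted p = 0.119).

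Ctss had 4733, 4567, 4543, 4811 and 4955 CPM in poly(I:C) libraries, 2965, 2687, 2889, 3309 and 2829 CPM in CL075 libraries and 3150, 2818, 2932, 3225 and 2971 CPM in control libraries. On this scale the poly(I:C) libraries stood above all others (log2 0.65 against control, SE 0.06, edgeR adjusted p = 2.7e-08), but the difference turned to -0.29 with library totals and was not called with Hprt (0.10) or upper-quartile factors (0.32). CL075 and control overlapped (-0.04, 95% interval -0.18 to 0.10). The direct comparison gave 0.69 (SE 0.06, edgeR adjusted p = 1.4e-08), which was not called with library totals (0.10), Hprt (0.43) or upper-quartile factors (0.52). Within a library, the ratio of Ctss to Cd74 did not pass in any comparison (exact permutation adjusted p = 0.154 to 0.516), where libraries of 1 group spread widely, and a p of this kind does not show that the groups were alike. In the direct comparison of both treatments 5 members were called higher in poly(I:C) cells (Ciita, H2-DMa, H2-DMb1, H2-Oa and Ctss) and 0 lower, where 22.7% and 23.7% of all tested genes were called, and the libraries of these 5 did not overlap (66.2% of tested genes). H2-Oa, kept for its poly(I:C) reads, had to differ here too. The other 8 members had 4 higher and 0 lower calls, with a median log2 fold change of 0.53.

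The chain genes and Cd74 varied together between libraries of 1 group. The pooled SD of log2 CPM within groups was 0.42 for H2-Aa, 0.38 for H2-Eb1, 0.37 for Cd74 and 0.33 for H2-Ab1, against a median of 0.13 over all tested genes, and 0.08 for Ctss. Library 2 was the highest and library 3 the lowest of its group for each of the 4 genes in each of the 3 groups (12 of 12 cases). In 11 of the 12 cases the order from high to low was 2, 4, 1, 5 and 3. H2-Aa, H2-Ab1 and H2-Eb1 were also the 3 genes of all 11464 most like Cd74 over the 15 libraries, with root mean square differences of 0.122, 0.140 and 0.163, followed by Gpc1 (0.235) and Folr2 (0.239). Ciita did not follow this order, being lowest in library 2 of the poly(I:C) group, library 5 of the CL075 group and library 3 of the control group.

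**Figure D4:**
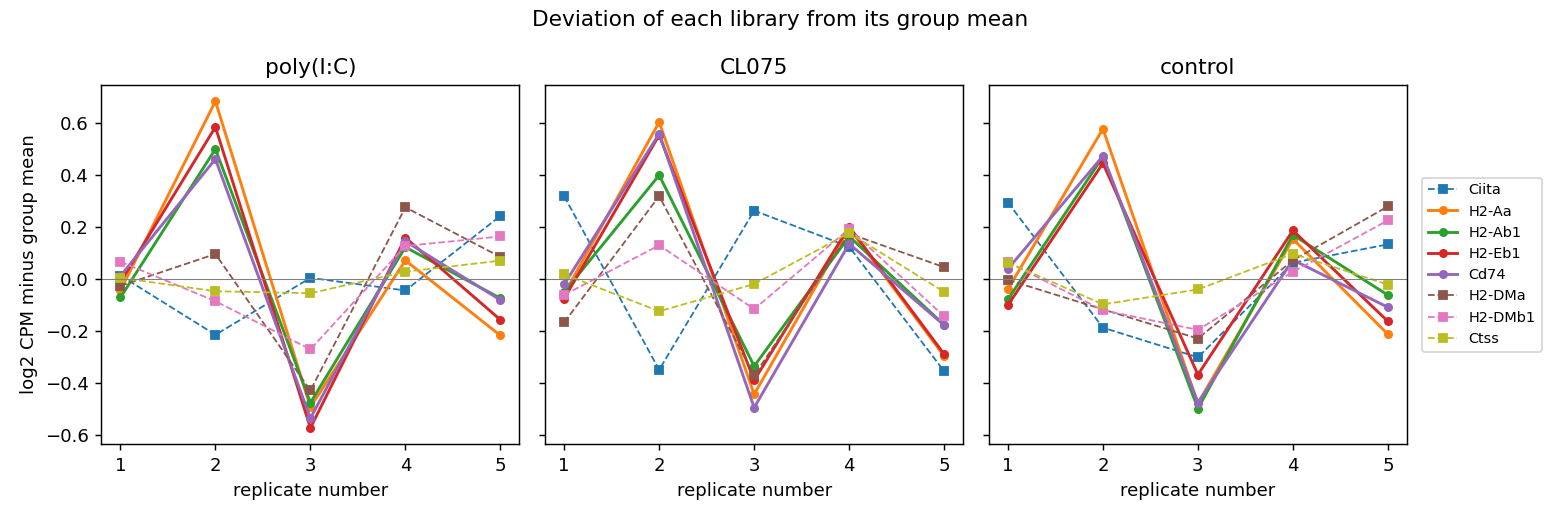
Log2 CPM minus the mean of its group (vertical axis) for 8 of the genes in libraries 1 to 5 of each group, with solid lines for H2-Aa, H2-Ab1, H2-Eb1 and Cd74 and dashed lines for the others; H2-Oa is left out for its low counts. The solid lines run close together and peak at library 2 with a low at library 3 in every group, while H2-DMa among the dashed lines is also lowest at library 3 in every group, and none of the dashed lines peaks at library 2 in every group.

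Markers of other cell types were read beside this spread. The summed TPM of 7 neutrophil markers was 121 to 528 in poly(I:C) libraries, 545 to 1033 in CL075 libraries and 111 to 487 in control libraries, with library 2 highest in every group and library 3 lowest in the poly(I:C) and control groups. The higher CL075 sum came mostly from S100a8 (516 TPM on average, against 99.9 in control cells). S100a9 (208 against 146 TPM), Ngp (39.5 against 28.4) and Camp (6.32 against 2.24) differed by less. Mpo (0.875 against 1.21) and Elane (0.812 against 1.26) were lower, and Ly6g was near 0. The 10 conventional dendritic cell markers summed to 32.2 to 39.7, 14.9 to 20.3 and 24.4 to 30.9 TPM in the poly(I:C), CL075 and control groups, and in no group was library 2 the highest. Of these, the defining genes Flt3, Zbtb46 and Cd209a had too few reads to be tested, and Cd209a had 0 reads in the poly(I:C) and CL075 libraries. Clec9a was at 6.57 TPM in poly(I:C) cells, against 0.163 TPM in control cells. Between the same groups, Xcr1 (0.543 against 0.0157 TPM), Ccr7 (1.09 against 0.332), Dpp4 (0.745 against 0.282) and Clec10a (19.5 against 16.1) also rose. Itgax (5.79 against 7.83) and Batf3 (1.29 against 1.74) fell. On the TMM scale, calls among the 7 tested markers were 5 upward and 0 downward for poly(I:C) (median log2 2.25). For CL075 there was 1 upward and 1 downward call (median 0.10). The 5 plasmacytoid dendritic cell markers summed to 964 to 1184 TPM with poly(I:C), 737 to 984 with CL075 and 607 to 675 in control libraries, mostly from Bst2. Of the 4 tested, poly(I:C) had 3 upward and 0 downward calls, and CL075 had 2 and 1. The 7 B cell markers summed to 57.9 to 74.6, 84.5 to 112 and 112 to 145 TPM in the same order of groups, mostly from Blnk (62.5, 92.6 and 107 TPM on average), which macrophages also express. Cd79b, a chain of the B cell receptor complex, averaged 3.49, 4.57 and 25.8 TPM in the poly(I:C), CL075 and control groups, while Ms4a1 and Cd79a averaged 0.591 TPM or less in each group and Ighm had 0 reads throughout. The part of dendritic or B cells in the class II values was not tested. Macrophage markers summed to 37698 to 41625 TPM with poly(I:C), 48680 to 56182 with CL075 and 64233 to 70673 in control libraries, of which Lyz2 alone averaged 34019, 45937 and 61245 TPM. On the TMM scale 4 of 7 tested macrophage markers were called higher and 0 lower with poly(I:C) (median log2 0.59), and 2 higher and 1 lower with CL075 (median -0.03).

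Among the 7 factors that bind class II promoters, poly(I:C) raised 1 and lowered 3, and CL075 raised 0 and lowered 1. Over all tested genes 25.4% were called higher with poly(I:C) and 30.5% lower, against 17.6% and 21.5% with CL075, so the poly(I:C) counts are near the background. Rfx5, the DNA-binding subunit of the RFX complex, was at 17.6 to 19.7 TPM in poly(I:C) libraries, 5.27 to 5.75 TPM in CL075 libraries and 7.33 to 9.28 TPM in control libraries and was called higher with poly(I:C) (log2 1.95, SE 0.06, edgeR adjusted p = 2.6e-16), with a difference of 2.24 from CL075. The subunit gene Rfxap was lower with poly(I:C) (-1.51, SE 0.09), as was the subunit gene Rfxank (-0.86, SE 0.09), which was also lower with CL075 (-0.81, SE 0.08; edgeR adjusted p = 6.4e-08 or less for all). The 3 subunits of 1 complex therefore moved in opposite directions with poly(I:C). Creb1, which binds the X2 box, was lower with poly(I:C) by just over the fold threshold (-0.61), and RLE factors (-0.54), DESeq2 (-0.54), a fit of only both groups compared (-0.58) and glmTreat (edgeR adjusted p = 0.26) ended that call. The NF-Y subunit gene Nfyc was called only between treatments, lower in poly(I:C) cells than in CL075 cells (-0.88, SE 0.05, edgeR adjusted p = 1.2e-11).

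A list of 8 genes held factors known for the promoters of Ciita or for their repression, and Socs1, which is not a promoter factor. Of these 8, poly(I:C) raised 6 and lowered 1, and CL075 raised 2 and lowered 1, beside 25.4% and 30.5% of all tested genes with poly(I:C) and 17.6% and 21.5% with CL075. The CL075 counts are near these shares. With poly(I:C) Irf1 rose by 3.31 (SE 0.09), Irf2 by 2.04 (SE 0.05) and Irf8 by 1.92 (SE 0.06), the largest edgeR adjusted p being 2.1e-15, while Ciita fell by 2.02. With CL075 Irf1 (0.13), Irf2 (0.07) and Irf8 (-0.24) were not called. Irf4 was lower with poly(I:C) (-1.28, SE 0.20) and with CL075 (-3.11, SE 0.24, edgeR adjusted p = 8.5e-10). Spi1, the macrophage factor PU.1, was higher with CL075 (1.59, SE 0.06) and with poly(I:C) (0.92, SE 0.06), where the call ended with Hprt (0.38) and the sign turned with library totals (-0.01). Socs1, the inhibitor of JAK signalling, had the largest difference of the list, 8.28 (SE 0.17) with poly(I:C) and 3.21 (SE 0.26) with CL075, at 37.8 to 51.0 TPM in poly(I:C) libraries, 1.17 to 2.30 TPM in CL075 libraries and 0.157 to 0.319 TPM in control libraries.

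The receptor of interferon gamma changed at its ligand-binding chain. Ifngr1 was at 20.2 to 21.9 TPM in poly(I:C) libraries, 89.7 to 116 TPM in CL075 libraries and 376 to 414 TPM in control libraries, and was lower with poly(I:C) (log2 -3.36, SE 0.05, edgeR adjusted p = 2e-19) and CL075 (-1.62, SE 0.05, edgeR adjusted p = 2.4e-15). The partner chain gene Ifngr2 was not called with poly(I:C) (-0.02) or CL075 (0.40). Jak2, the kinase that Ifngr2 carries, was higher with poly(I:C) (3.81, SE 0.09) and CL075 (1.55, SE 0.08). Ifng itself had too few reads to be tested. Ifngr1 was lowest with poly(I:C) and Ciita lowest with CL075, and a link between both was not tested.

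**Figure D5:**
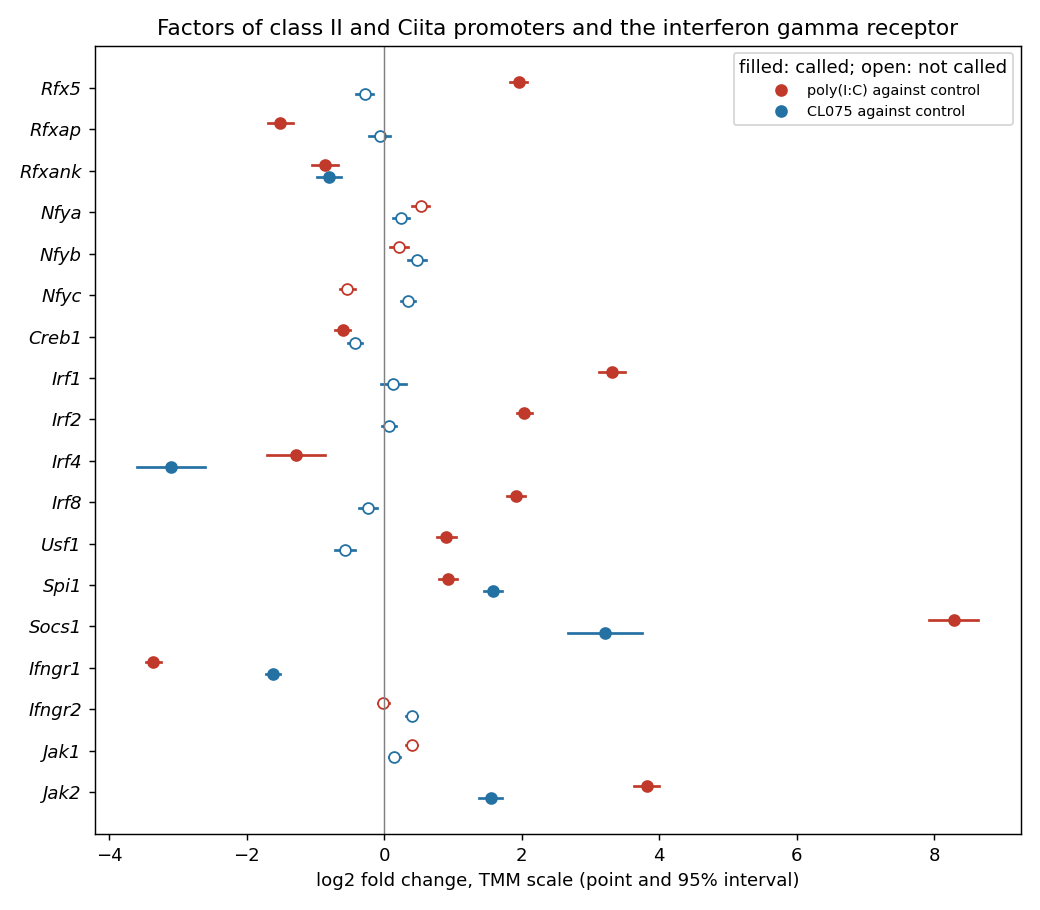
Log2 fold change on the TMM scale (horizontal axis, point and 95% interval) of factors of class II and Ciita promoters, of Socs1 and of the interferon gamma receptor and its kinases, with poly(I:C) above CL075 for each gene and open points for genes not called. Irf1, Irf2, Irf8 and Rfx5 lie to the right with poly(I:C) only, Irf4 and Ifngr1 lie to the left with both treatments, and Socs1 lies farthest right.

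Of the 5 coactivators that work with Ciita, poly(I:C) raised 4 and lowered 0 (25.4% and 30.5% of all tested genes), and 0 were called with CL075 by edgeR or DESeq2 (17.6% and 21.5%). With CL075 3 of them, Carm1 (0.53), Kat2b (0.53) and Smarca4 (0.37), had an edgeR adjusted p of 9.2e-06 or less, and an unadjusted p under 0.05, but a fold below the threshold. Kat2b, a histone acetyltransferase, was higher with poly(I:C) by 2.45 (SE 0.08), and Smarca4, the motor of a chromatin remodeller, by 1.21 (SE 0.06), which was not called with library totals (0.27). Ep300 was called with poly(I:C) at 0.75 (SE 0.05), and Carm1 at a fold of 1.5004, just over the threshold of 1.5. Among 9 tested genes of lysosomal peptide processing, 3 were higher and 0 lower with each treatment, close to the 25.4% called higher among all tested genes with poly(I:C) and above the 17.6% with CL075. These were Ctsc, a cathepsin that removes dipeptides (3.11 with poly(I:C), 1.35 with CL075), Ctsz (1.22 and 1.14) and Sppl2a, which cleaves the membrane remnant of the invariant chain (2.14 and 0.87). With library totals the poly(I:C) call of Ctsz (0.28) and the CL075 call of Sppl2a (0.52) ended, and Hprt also ended that of Sppl2a (0.58). March1, the ligase that tags class II for turnover, was higher by 1.97 with both treatments (SE 0.07 each). Cd83, which holds class II on the surface against March1, was higher with poly(I:C) (2.05, SE 0.15) but not with CL075 (-0.01, SE 0.15). Mif, a ligand of Cd74, was higher with CL075 (1.17, SE 0.18). Median log2 fold changes with poly(I:C) and CL075 were 0.75 and 0.37 for the coactivators, 0.44 and 0.03 for the lysosomal genes, 1.42 and 0.10 for the Ciita factors with Socs1 and -0.54 and -0.07 for the promoter factors, beside -0.08 and -0.02 over all tested genes.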

How the data were processed

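RNA of 15 BMDM libraries (stranded mRNA kit, single reads) was sequenced. The authors trimmed the reads, mapped them to GRCm38.p6 in CLC Genomics Workbench with up to 5 hits per read and deposited per gene and library the raw count and the TPM, scaled to 1 sum in each library. Their fold changes and p-values, from CLC and from HISAT2, featureCounts and edgeR, were not used, nor were 20 RPKM columns. Counts summed to 21816291 to 32487565 per library. The control libraries were identical in the tables of both comparisons, which therefore share their controls.

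Counts were fitted with edgeR 4.0.16 in R 4.3.3 (filterByExpr, TMM, quasi-likelihood test, Benjamini-Hochberg). The SE is the absolute log2 fold change over the square root of F. Log2 CPM has a prior count of 2. The test was also run on simulated counts, with libraries drawn independently and few genes changed. That run does not bear on the choice of scale or on libraries of the same number deviating together. Ratios, likeness and motifs were computed in Python 3.11.15 with scipy 1.17.1. Alternatives were upper-quartile and RLE factors, library totals, Hprt, DESeq2 1.42.0, other filters, only the groups compared, a replicate block, glmTreat and each library left out. All 9 members are named. Of the other lists, any tested gene could be named, and that with the largest called fold in each direction always was. Members and lists were chosen with earlier results of these data known. Of the lists, 1 factor of the Ciita promoters and 1 B cell marker are not reported here.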

Additional observations from a re-analysis of the deposited data

How the results depend on the processing

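The call of Ciita held under each alternative run in all 3 comparisons, and so did those of H2-DMa between CL075 and control and between both treatments. The scale moved the small differences. With poly(I:C) against control, library totals turned H2-Aa (-0.31), H2-Ab1 (-0.073), H2-Eb1 (-0.46), Cd74 (-0.13), Ctss (-0.29) and Spi1 (-0.013), and Hprt turned H2-Eb1 (-0.075). With CL075 against control, library totals turned H2-Aa (-0.0087) and H2-Eb1 (-0.093), and Hprt turned H2-Eb1 (-0.029). With poly(I:C) against CL075, library totals turned H2-Aa (-0.30), H2-Ab1 (-0.40), H2-Eb1 (-0.37) and Cd74 (-0.21), and Hprt turned H2-Ab1 (-0.081) and H2-Eb1 (-0.046). Genes called higher made up 45.5% of all poly(I:C) calls against control with TMM, 32.3% with upper-quartile factors, 25.5% with Hprt and 16.8% with library totals, and 45.1%, 33.5%, 25.6% and 22.4% of the CL075 calls. That split between both treatments was 48.9% with TMM, 35.0% with Hprt and 22.4% with library totals.

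Of 6 members called with poly(I:C), 2 were called with upper-quartile factors and 3 with glmTreat against 1.5-fold, which ended H2-Aa, Cd74 and Ctss, and with CL075 glmTreat ended H2-Ab1. Of 5 called between both treatments, 3 were called with library totals. Leaving out 1 library gave 5 to 7 calls with poly(I:C), 3 to 4 with CL075, 5 to 5 between treatments and 9 to 12 of 18 ratios. The H2-Aa to H2-Ab1 ratio, and that of Cd74 to H2-Ab1 between treatments, often ended at an adjusted p of 0.0519 with 4 libraries in a group, where the smallest raw p is 0.0159. A pseudocount of 1 TPM gave 1.49 for H2-Oa to H2-DMa with CL075 against control, which then passed, and 0.34 between treatments, which no longer did. H2-Oa was not tested with a CPM of at least 1 in 5 libraries.

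Libraries of the same number deviated together in 14 of 15 pairs (correlation over 0.1), the lowest being -0.004, and 14 of 15 libraries correlated best with their own number, a hint from the data. The column labels also share a prefix by number and carry consecutive sample indices, without saying what a number stands for. A replicate block changed no member call, with 6627 genes called with poly(I:C), 4651 with CL075 and 5502 between treatments (6599, 4616 and 5487 without it). In that fit the difference of Cd74 with CL075 was 0.42 (SE 0.04, edgeR adjusted p = 2.6e-08), against 0.43 (SE 0.19) without the block, and stayed below the fold threshold. H2-Aa differed there by 0.34 with CL075 (SE 0.04, edgeR adjusted p = 3.2e-07). Between treatments H2-Aa differed by 0.28 (edgeR adjusted p = 3.6e-06) and H2-Ab1 by 0.17 (edgeR adjusted p = 0.0013), also below that threshold. Depth limits H2-Oa, with 1 to 4 reads in each CL075 and control library. The ratio tests take no account of the numbers. Between libraries of the same number, the ratio of Ctss to Cd74 was lower in 5 of 5 with CL075 (0.672 to 0.747 times control) and in 5 of 5 with poly(I:C) (0.815 to 0.939 times control), and a paired permutation of 5 pairs cannot go below p = 0.0625.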
